A study of Mus musculus with 4 samples.

Results

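Transcripts of 10 genes of the EGF receptor system were followed across 4 sorted populations of mouse intestinal tumour cells. They were the ligand genes Areg, Ereg, Egf, Btc, Hbegf and Tgfa, the receptor genes Egfr, Erbb2 and Erbb3, and the inhibitor gene Errfi1. They were chosen by name, with no filter on signal, and every probe whose accession belonged to one of them was used, which gave 14 probes for 10 of the 22911 named genes on the array. All 4 populations were EpCAM+ cells of intestinal tumours in mice of the genotype Lgr5CreERT2/+; Ctnnb1lox(ex3)/ox(ex3), as the labels spell it, 14 days after tamoxifen. In this model the Lgr5 locus drives a tamoxifen-dependent Cre, and the deletion of a floxed exon leaves a stabilised beta-catenin in cells that expressed Lgr5. The sort divided the cells by Lgr5, a receptor of intestinal stem cells, and by a tuft cell marker named as IL17RB, a receptor subunit for the cytokine IL-25. This gave 4 groups, and values below follow this order unless named: first Lgr5+ tuft marker+, then Lgr5+ tuft marker-, then Lgr5- tuft marker+, and last Lgr5- tuft marker-. The animals' age and sex, the number pooled for each sort and the segment of intestine are not given in the sources used here.

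The EGF family ligands are made as membrane-anchored precursors, and proteases of the ADAM family release them. They bind EGFR and ERBB4, which then pair with each other or with ERBB2, for which no ligand is known, and with ERBB3, whose own kinase is weak and which binds neuregulins. Signalling runs through the RAS, ERK and PI3K pathways and induces its own inhibitors, among them ERRFI1, which binds the kinase domain of active receptors. In the intestinal crypt EGF signalling supports the division of stem cells, and Paneth cells and the surrounding stroma are known sources of ligand.

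Each population was hybridised to 1 one-colour array, so no difference could be tested, and the number of arrays limits the precision. A level is the log2 signal of a probe minus that of the 75th percentile on its array. A gene that did not clear background was not flagged by the scanner software as well above it. A difference is 1 level minus another on this log2 scale. The error after a ± sign is the one the scanner software gave for the spots and does not cover animals, sorts or labelling. Levels of different genes come from different probes and were not set against each other. Between 60.2% and 69.0% of the spots of an array were well above background, and between 15327 and 17157 genes were so. Il17rb had 6.75-fold more signal with the tuft marker within Lgr5+ and at least 14.0-fold more within Lgr5-. Lgr5 had at least 7.34-fold more signal in the Lgr5+ sort within tuft marker+ and 5.23-fold more within tuft marker-, so both sort genes followed the labels. Of other tuft cell markers, 12 of 15 measured were at least 2-fold higher with the tuft marker within Lgr5+ and 13 of 16 within Lgr5-, and 0 were 2-fold lower. Epcam stood at 5.02, 5.22, 4.52 and 5.56. Genes of cells outside the gate were also present. The macrophage gene Adgre1 stood at 1.58 and 2.91 in Lgr5+ and Lgr5- tuft marker+ cells, did not clear background in Lgr5+ tuft marker- cells, and stood at -2.20 in Lgr5- tuft marker- cells. In bulk RNA, fewer cells of a type and less RNA per cell cannot be told apart.

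Promoter sequence was at hand for 7 of the 10 genes, from RefSeq on the GRCm38.p6 assembly, and the 250 bases before each annotated start were searched on both strands for 6 short motifs. Areg and Errfi1 are shown because they had the largest tuft marker difference and the largest Lgr5 difference of the 10 genes. In addition, both windows held the same motifs, namely a cAMP response element, a TATA element and a GC box. Capitals mark the cAMP response element TGACGTCA and the TATA element TATAAA. The Areg window is chr5:91139349-91139598 on the plus strand, and the Errfi1 window, which belongs to the second of its 2 annotated starts, is chr4:150854820-150855069 on the plus strand.
Areg: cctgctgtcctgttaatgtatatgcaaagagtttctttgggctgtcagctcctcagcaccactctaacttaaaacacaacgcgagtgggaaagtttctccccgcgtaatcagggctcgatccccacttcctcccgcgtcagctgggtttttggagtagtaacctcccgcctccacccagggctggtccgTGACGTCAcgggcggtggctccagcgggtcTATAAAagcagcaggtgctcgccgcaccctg
Errfi1: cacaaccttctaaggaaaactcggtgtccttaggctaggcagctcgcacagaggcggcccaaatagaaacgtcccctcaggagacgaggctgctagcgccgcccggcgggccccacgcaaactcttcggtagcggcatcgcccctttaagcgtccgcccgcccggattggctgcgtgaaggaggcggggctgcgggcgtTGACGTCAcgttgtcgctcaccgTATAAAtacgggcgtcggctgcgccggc
In Areg the cAMP response element lay 61 to 54 bases before the start and the TATA element 31 to 26. In Errfi1 they lay 51 to 44 and 28 to 23 bases before it. TGACGTCA was found in 1.55% of 32851 promoter windows of this length and TATAAA in 12.4%, and both were found together in 39 windows, or 0.119%. The other searched motifs were TGANTCA (AP-1, in 6.75% of windows), CTTTGAT (TCF/LEF, 3.21%), GGAATG (TEAD, 12.6%) and GGGCGG (GC box, 32.7%), none of which contains, or is contained in, TGACGTCA or TATAAA. The window of the first Errfi1 start held neither of these elements. The TEAD motif lay 88 to 83 bases before the Erbb2 start and, on the minus strand, 65 to 60 bases before the first Errfi1 start. The GC box lay 52 to 47 bases before the Areg start, and was also found in the Tgfa, Egfr and second Errfi1 windows. A match describes the letters only.

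Areg encodes amphiregulin, a ligand of EGFR induced in gut injury. Its level was 0.59 ± 0.15, 1.38 ± 0.14, 0.69 ± 0.15 and 2.50 ± 0.14. It was highest in cells with neither marker and next in Lgr5+ tuft marker- cells, while the levels of the 2 tuft marker+ populations lay within their errors of each other. Cells with the tuft marker had 1.73-fold less Areg signal within Lgr5+ (difference -0.79 ± 0.21) and 3.51-fold less within Lgr5- (-1.81 ± 0.20). The tuft marker difference was thus 1.02 ± 0.29 larger in size within Lgr5-, where the median size of this quantity over 14055 genes above background on all 4 arrays was 0.80. Along the other axis, Lgr5+ cells had 2.18-fold less Areg than Lgr5- cells where the tuft marker was absent (-1.12 ± 0.20), which fell short of 2-fold after normexp background correction (which models the background and adds an offset to weak and strong signals alike). With the tuft marker the difference was -0.10 ± 0.21, and it ran from -0.27 to 0.12 over the ways of processing.

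Mast cells and innate lymphoid cells also express Areg. Of 13 markers of these cells, 8, 10, 9 and 10 were above background on the 4 arrays, with median levels of -2.98, -2.83, -2.49 and -2.91 and summed signals of 3.88, 2.59, 5.58 and 2.27 times the 75th percentile. With the tuft marker 3 of 10 measured were at least 2-fold higher and 2 lower within Lgr5+ (median 0.47, range -1.32 to 1.91), and 4 and 0 within Lgr5- (median 0.60). Other epithelial types also differed with the tuft marker. Of 10 measured enteroendocrine markers 1 was at least 2-fold higher and 5 lower within Lgr5+ (median -0.94), and 0 and 7 within Lgr5- (-1.66), with median levels of -0.32, 0.71, -1.22 and 1.39, in which the tuft marker- populations are the higher ones and cells with neither marker the highest, as for Areg. Of 10 goblet markers 0 were higher and 4 lower within Lgr5+ (-0.73), and 0 and 9 within Lgr5- (-1.53). Enterocyte markers went another way, with 6 of 9 higher and 0 lower within Lgr5+ (1.79), and 1 and 4 within Lgr5- (0.02). With Lgr5, 4 of the 9 were at least 2-fold higher and 0 lower within tuft marker+ (0.96), and 0 and 7 within tuft marker- (-1.13). Within Lgr5- the tuft marker difference of 16 epithelial genes had a median of -0.85 and that of Epcam was -1.04 ± 0.20, against -1.81 for Areg. Within Lgr5+ the epithelial median was 0.06 and Epcam differed by -0.20 ± 0.20. The part of these cells in the Areg difference was not tested.

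Hbegf encodes heparin-binding EGF-like growth factor, which binds EGFR and ERBB4. It stood at 3.66, 3.91, 2.98 and 3.71, each ± 0.14. Lgr5- tuft marker+ cells were the lowest, beyond 2 errors, and the other 3 populations lay close together. The tuft marker difference was -0.25 ± 0.20 within Lgr5+ and -0.73 ± 0.20 within Lgr5-, and the Lgr5 difference was 0.68 ± 0.20 with the tuft marker and 0.20 ± 0.20 without it.

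Btc encodes betacellulin, another ligand of EGFR and ERBB4. Its stronger probe stood at -1.89 ± 0.19, -1.35 ± 0.16, -1.91 ± 0.18 and -1.71 ± 0.17, and no 2 neighbours in this order of levels differed beyond 2 errors. The tuft marker difference was -0.54 ± 0.25 within Lgr5+ and -0.20 ± 0.25 within Lgr5-, the latter between -0.44 and 0.09 over the ways of processing. A second Btc probe was above background in Lgr5+ tuft marker- cells alone, at -3.27, which is the population where the first probe was highest.

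Tgfa encodes transforming growth factor alpha, which binds EGFR. Its probe did not clear background in Lgr5+ tuft marker+ cells and stood near the detection limit in the others, at -3.15 ± 0.25, -3.19 ± 0.28 and -3.26 ± 0.29. Tgfa differed by 0.07 with the tuft marker within Lgr5- and by 0.11 with Lgr5 within tuft marker-, and in the pairs that used the undetected array it was lower there by at least 1.20-fold (within Lgr5+) and at least 1.17-fold (within tuft marker+). All 4 signs turned with the processing.

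Ereg, for epiregulin, and Egf, for epidermal growth factor itself, were not well above background on any array. Their unscaled intensities were 2.76, 2.66, 10.3 and 8.13 for Ereg and 3.61, 4.41, 5.04 and 4.30 for Egf, where the 75th percentile of an array lay between 130 and 175. No direction is read from signals at this level. With the scanner's less strict flag for a positive and significant signal, Ereg entered the counts as over 2-fold lower with Lgr5 on both sides of the tuft marker. Epgn, Ereg, Areg and Btc are consecutive protein-coding genes on chromosome 5 in the RefSeq order. Epgn, which encodes the ligand epigen, stood at -2.58, -2.22, -0.81 and -2.89, so that Lgr5- tuft marker+ cells, where Areg was low, had the most Epgn.

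**Figure D1:**
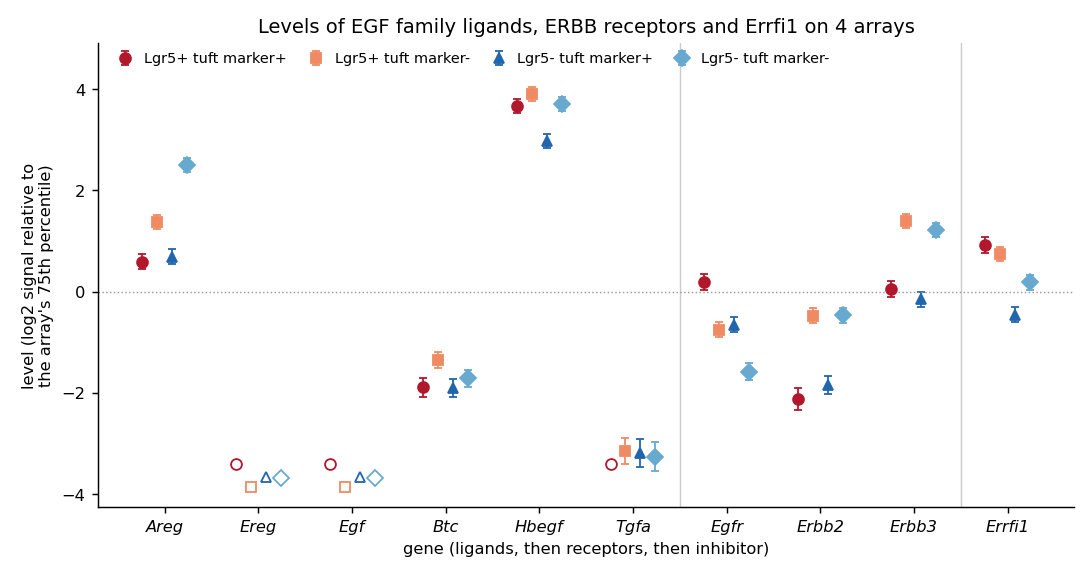
Level of each gene on each array (log2 signal relative to the array's 75th percentile, y axis), with bars for the scanner's error. Filled symbols are well above background, and open symbols are not and stand at the array's floor, or at their own signal where that is higher. Genes with several probes are shown by their strongest probe. The 2 tuft marker- symbols stand above the 2 tuft marker+ symbols for Areg, Erbb2 and Erbb3. Egfr steps down from 0.19 in cells with both markers to -1.58 in cells with neither, which its probe A_52_P674338 did not repeat.

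Egfr encodes the receptor shared by these ligands. Its strongest probe stood at 0.19 ± 0.15, -0.75 ± 0.15, -0.65 ± 0.15 and -1.58 ± 0.17. On this probe cells with both markers had the most and cells with neither had the least, each beyond 2 errors from the next. The populations with 1 marker lay 0.10 ± 0.21 apart. The tuft marker went with 1.92-fold more signal within Lgr5+ (0.94 ± 0.21) and 1.90-fold more within Lgr5- (0.93 ± 0.23). Lgr5 went with 1.79-fold more within tuft marker+ (0.84 ± 0.21) and 1.77-fold more without it (0.83 ± 0.23). The 2 tuft marker differences were 0.02 ± 0.31 apart, and both lay just under the 2-fold threshold. Over 10 ways of processing they ran from 0.63 to 1.04 within Lgr5+ and from 0.37, with the mean of all probes, to 1.22 within Lgr5-. The Lgr5 differences ran from 0.52 to 1.06 within tuft marker+ and from 0.30 to 0.89 without it, the lowest of both after normexp. Stromal and macrophage markers were higher with the tuft marker in the same pairs. Their median differences were 2.69 and 3.08 within Lgr5+, and 3.24 and 4.13 within Lgr5-. With Lgr5 within tuft marker+ they went the other way from Egfr. There 8 of 12 stromal and 7 of 15 macrophage markers were at least 2-fold lower and 0 were higher. In tuft marker- cells, 1 of 8 stromal markers was lower and 0 higher, and 4 of 15 macrophage markers were lower and 2 higher. The part of these cells in the Egfr differences was not tested.

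Egfr was measured by 3 probes, which did not repeat this pattern in full. The strongest, A_52_P56471, is assigned to transcript NM_007912, and the others to NM_207655. Which form of the receptor each transcript encodes was not compared here. Probe A_52_P674338 stood at -1.31, -1.91, -2.05 and -1.68, with tuft marker differences of 0.60 ± 0.24 within Lgr5+ and -0.36 ± 0.25 within Lgr5-. Its Lgr5 differences were 0.74 ± 0.25 within tuft marker+ and -0.23 ± 0.24 without it. Probe A_52_P106259 stood at -2.83, -3.23 and -3.13 and did not clear background in Lgr5- tuft marker- cells. Its tuft marker differences were 0.40 ± 0.36 and at least 0.56 ± 0.59, and its Lgr5 differences 0.29 ± 0.36 and at least 0.45 ± 0.58. All 3 probes were highest in cells with both markers, but on A_52_P674338 cells with neither marker were not the lowest. Within Lgr5- the 2 probes above background on both arrays thus differed in direction, and the limit for the third lay within its error. The range of 1.29 between those 2 was as large or larger in 18.4% of 4532 genes with several probes, whose median range was 0.63. For Lgr5 without the tuft marker their range was 1.05, as large or larger in 16.8% of 4755 genes, whose median was 0.47. The 1.77-fold Lgr5 difference thus rests on 1 of these 2 probes.

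Erbb2 encodes the receptor without a known ligand. Its stronger probe stood at -2.12 ± 0.21, -0.48 ± 0.15, -1.84 ± 0.18 and -0.47 ± 0.15, so that both tuft marker- populations were high, both tuft marker+ populations were low, and Lgr5 separated neither pair beyond 2 errors. The tuft marker went with 3.1-fold less signal within Lgr5+ (-1.63) and 2.58-fold less within Lgr5- (-1.37). The second probe, assigned to the same transcript, stood at -2.38, -2.03, -1.75 and -1.04. On it the tuft marker differences were -0.35 and -0.70, and Lgr5 differences of -0.63 and -0.99 appeared that the first probe put at -0.28 and -0.01. Both probes had less Erbb2 in tuft marker+ cells, but the 2-fold size rests on 1 of the 2, and after normexp Erbb2 did not reach it in either pair. A range between probes as large as the 1.28 within Lgr5+ was met in 19.5% of 4371 genes.

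Erbb3 encodes the neuregulin receptor that lends ERBB2 its PI3K docking sites. On its 1 probe it stood at 0.05 ± 0.15, 1.40 ± 0.14, -0.15 ± 0.15 and 1.21 ± 0.14. Again both tuft marker- populations were high and both tuft marker+ populations low, by 2.54-fold within Lgr5+ (-1.35) and 2.57-fold within Lgr5- (-1.36). The Lgr5 differences were 0.20 ± 0.21 and 0.19 ± 0.20. Over 10 ways of processing the tuft marker differences of Erbb3 ran from -1.35 to -1.06 and from -1.59 to -0.98, and the last of these, after normexp with quantile scaling, is under 2-fold. Several cell type lists moved with the tuft marker in the same pairs. The goblet and enteroendocrine lists were lower, and the enterocyte list was higher within Lgr5+, as given for Areg. Of 15 macrophage markers 10 were at least 2-fold higher within Lgr5+ (median 3.08) and 12 within Lgr5- (4.13), with 0 lower. Within Lgr5+ the general epithelial list had a median difference of 0.06, with 2 of 16 genes at least 2-fold higher and 0 lower. Within Lgr5- its median was -0.85, with 1 higher and 6 lower. Its summed signal was 289, 184, 228 and 233 times the 75th percentile, and the part of these cells in the receptor differences was not tested. Erbb3 and the stronger Erbb2 probe were the closest pair among the 7 genes above background on every array, at a root mean square distance of 0.20 between their centred levels.

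**Figure D2:**
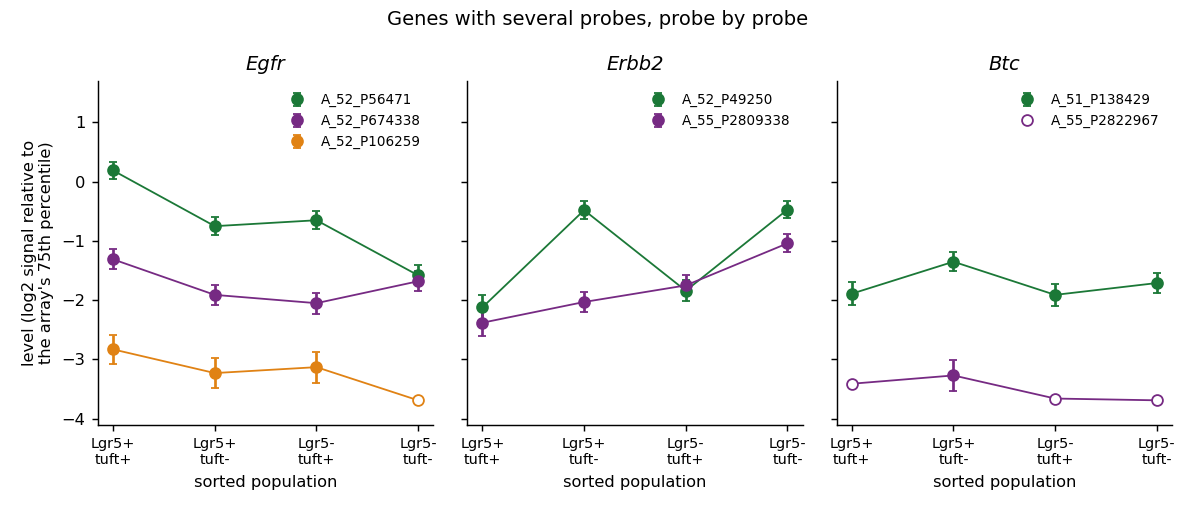
Level of every probe of the genes with several probes (y axis, log2 relative to the 75th percentile) in the 4 populations, with the scanner's error and open symbols where a probe was not well above background. The stronger Erbb2 probe gives tuft marker differences of -1.63 and -1.37, and the weaker -0.35 and -0.70.

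Errfi1 encodes the feedback inhibitor also called MIG6. It stood at 0.92 ± 0.15, 0.74 ± 0.14, -0.46 ± 0.15 and 0.18 ± 0.15, so both Lgr5+ populations were above both Lgr5- populations. Lgr5+ cells had 2.60-fold more within tuft marker+ (1.38 ± 0.21) and 1.47-fold more within tuft marker- (0.56 ± 0.21). The tuft marker difference was 0.18 ± 0.21 within Lgr5+ and -0.64 ± 0.21 within Lgr5-, where Lgr5- tuft marker+ cells were the lowest of the 4. The Lgr5 differences kept their sign over 10 ways of processing, between 1.06 and 1.60 and between 0.38 and 0.63. Paneth, goblet and stem cell markers also differed with Lgr5. Of 7 Paneth markers measured within tuft marker+, 7 were at least 2-fold higher in Lgr5+ cells (median difference 1.85), and of 10 goblet markers 8 were (1.68). Without the tuft marker, 6 of 8 Paneth markers (1.25) and 3 of 10 goblet markers (0.89) were. Of 10 stem cell markers, which include Lgr5 itself, 5 were within tuft marker+ (1.08) and 2 without it (0.36). Their part in the Errfi1 difference was not tested.

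Counted together, 8 of the 10 genes were measured in each pair, meaning above background on at least 1 of its 2 arrays. With the tuft marker, 0 were at least 2-fold higher and 2 at least 2-fold lower within Lgr5+ (Erbb2 and Erbb3), and 0 and 3 within Lgr5- (Areg, Erbb2 and Erbb3). Over all genes measured, 10.4% were higher and 8.12% lower within Lgr5+, and 16.4% and 12.3% within Lgr5-. With Lgr5, 1 was higher and 0 lower within tuft marker+ (Errfi1), against 8.95% and 11.4% of all genes, and 0 were higher and 1 lower within tuft marker- (Areg), against 6.48% and 5.28%. The Lgr5 counts lie within 1 gene of what these shares give for 8 genes.

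Erbb2 and Erbb3 were at least 2-fold lower in both tuft marker pairs, which share no array. Of 16757 genes measured in both pairs 1.42% were so, and 4.78% were at least 2-fold higher in both, with no gene of the 10 among them. For Erbb2 this rests on its stronger probe, since the second differed by -0.35 and -0.70. After normexp Erbb2 reached 2-fold in neither pair, and with quantile scaling Erbb3 fell short within Lgr5- (-0.98). None of the 10 passed 2-fold in both Lgr5 pairs, against 0.733% higher and 0.582% lower over 16497 genes. The median tuft marker difference of the 8 genes was -0.40 within Lgr5+ and -0.68 within Lgr5-, beside 0.00 and 0.08 for all genes. Their median Lgr5 difference was 0.11 and 0.19, beside -0.04 and 0.00.

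The level of 5 of the 7 genes above background on all arrays spanned at least 2-fold from the lowest to the highest population, against 45.0% of 14055 genes. The spans were 1.91 for Areg, 1.77 for Egfr, 1.64 for Erbb2, 1.55 for Erbb3, 1.38 for Errfi1, 0.93 for Hbegf and 0.56 for Btc. Of the 7 genes, 4 were lowest in Lgr5- tuft marker+ cells, as were 34.0% of all genes, and 0 were highest there, as were 29.9%. For 2 of these 4, Btc and Erbb3, the next population lay within 2 errors, at 0.02 ± 0.26 and 0.20 ± 0.21.

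The balance of higher and lower calls over all genes depended on the scaling, which bears on what a difference is measured against. Of the calls with the tuft marker, 56.2% were higher within Lgr5+, and 76.6% or 72.8% after normexp background correction with quantile or percentile scaling. It was 47.1% there with the less strict flag and 46.3% without a floor, so the balance within Lgr5+ also turned with the treatment of weak signals. Within Lgr5- the share was 57.2%, 37.1% with each array scaled to its median and 79.4% in the authors' value table. With Lgr5 it was 43.9% within tuft marker+, and 66.9% and 27.9% under the same 2 settings. Where the tuft marker was absent it was 55.1%, 41.0% with median scaling and 44.4% after normexp with percentile scaling.

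**Figure D3:**
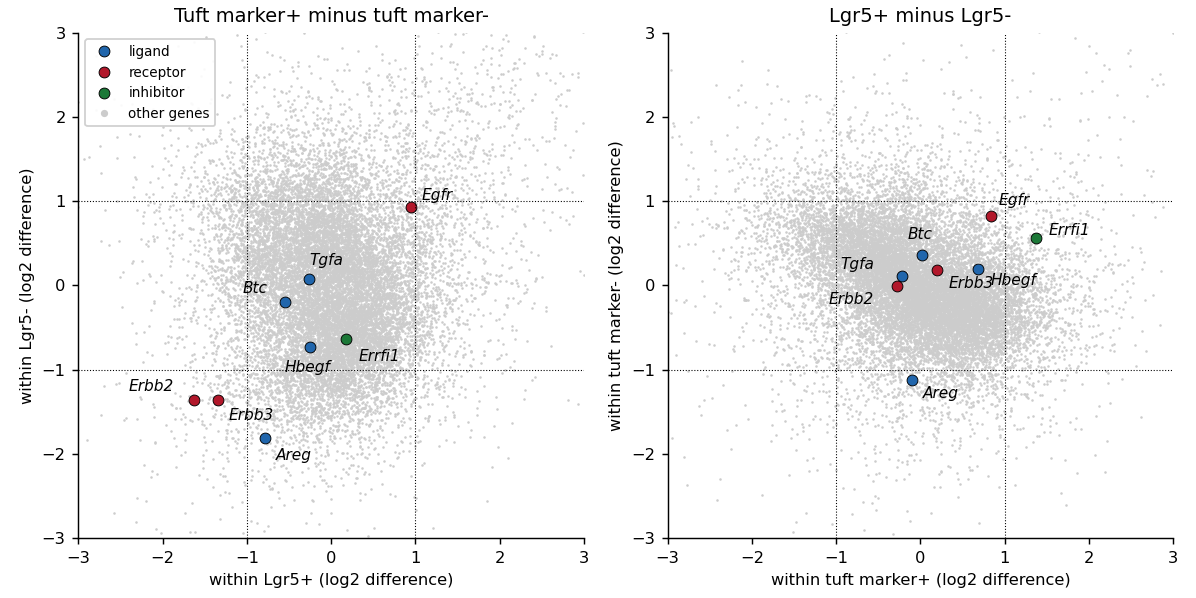
Difference of each gene in 1 pair of arrays (x axis, log2) against the other pair of the same axis (y axis, log2), for the tuft marker at left and Lgr5 at right, with dotted lines at 2-fold. Grey points are all genes measured in both pairs and within the axes. Erbb2 (-1.63 and -1.37) and Erbb3 (-1.35 and -1.36) lie in the lower left corner of the tuft marker plot, and Egfr (0.94 and 0.93) lies just short of both lines at the upper right.

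**Figure D4:**
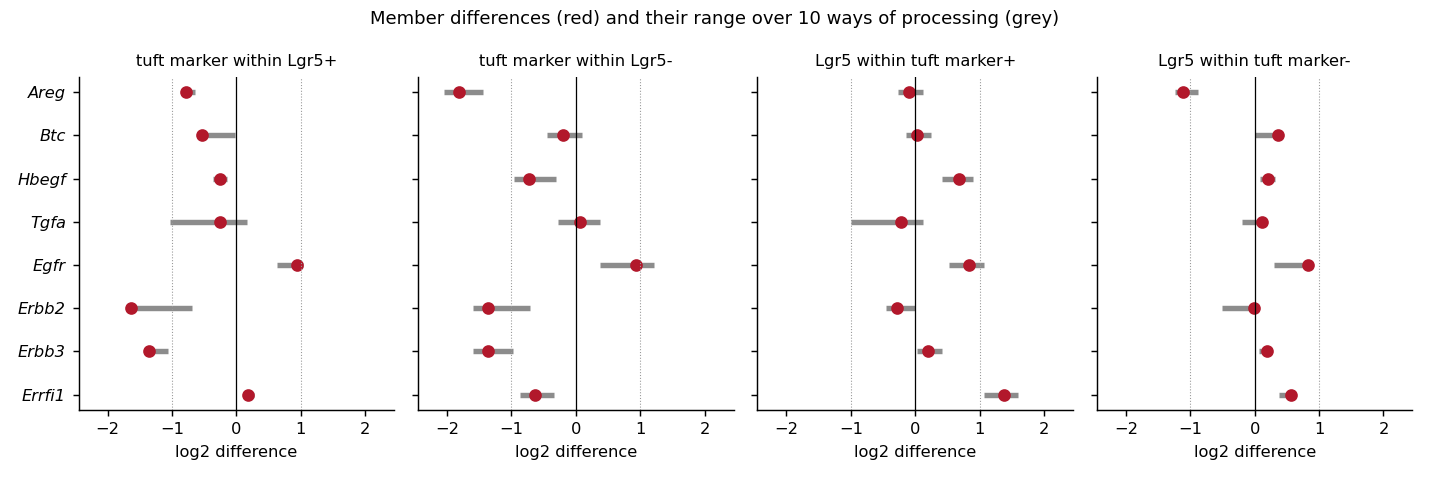
Difference of each gene in each of the 4 pairs (red, log2) with its lowest and highest value over 10 ways of processing (grey bars). Erbb3 keeps within -1.59 to -0.98 on the tuft marker axis, while Erbb2 reaches -0.69 and Egfr within Lgr5- reaches 0.37. The bars leave out the other probes taken singly. These gave -0.35 for Erbb2 within Lgr5+, and -0.36 and at least 0.56 for Egfr within Lgr5-.

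Of the other ligands and the fourth receptor, only Nrg2 and Epgn were above background on all 4 arrays. Erbb4 was not well above background on any array. Nrg1, which encodes a neuregulin that binds ERBB3 and ERBB4, was above background in Lgr5- tuft marker+ cells alone, at -1.74, and at least 3.85-fold lower in Lgr5- tuft marker- cells. Nrg3 was above background in Lgr5+ tuft marker+ cells alone, at -2.51. Nrg2 stood at -0.30, -0.27, -0.61 and -0.35, and all of its differences were 0.31 or less in size. Nrg4 stood at -3.0, -2.48 and -2.82 and did not clear background in Lgr5- tuft marker- cells. Epgn was 4.22-fold higher with the tuft marker within Lgr5- (2.08 ± 0.28) and 1.28-fold lower within Lgr5+ (-0.36 ± 0.29). Stromal cells are a known source of neuregulin, and 12 stromal markers had median levels of -0.54, -2.55, 1.27 and -2.40, with 8, 8, 12 and 7 of them above background and summed signals of 41.3, 32.2, 64.5 and 41.7 times the 75th percentile. They were highest on the array where Nrg1 was detected, and their part in it was not tested.

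Genes for the shedding and trafficking of ligands were all measured where they had a probe, 10 of 11. With the tuft marker 2 were at least 2-fold higher and 1 lower within Lgr5+ (median 0.45), and 1 and 1 within Lgr5- (median 0.42). Over all genes measured, 10.4% were higher and 8.12% lower within Lgr5+, and 16.4% and 12.3% within Lgr5-. Rhbdf2, which encodes an inactive rhomboid that carries ADAM17 to the cell surface, stood at 0.91, -0.64, 0.48 and -0.00, and was 2.91-fold and 1.40-fold higher with the tuft marker. Its relative Rhbdf1 was 1.68-fold and 2.34-fold higher. Since most macrophage markers were also higher in these pairs, the rise need not lie in tumour cells. The part of macrophages in the Rhbdf2 and Rhbdf1 differences was not tested. Rhbdl2, which encodes an active rhomboid protease that can cleave EGF family precursors, stood at -1.35, -0.23, -1.27 and 0.66. It was lower with the tuft marker in both classes, by 2.18-fold and 3.81-fold, as Areg was. Adam12 differed by -0.66 within Lgr5+ and 0.65 within Lgr5-.

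Of 30 adaptor, kinase and other signalling genes, 3 passed 2-fold upwards and 1 downwards with the tuft marker within Lgr5+ (median 0.29). Within Lgr5- 2 and 2 did so (-0.15). The shares over all genes were again 10.4% and 8.12%, and 16.4% and 12.3%. Gab2, which encodes a docking protein for PI3K and SHP2, was 1.86-fold and 4.71-fold higher. Most macrophage markers were higher in the same pairs, and the part of macrophages in the Gab2 differences was not tested. Sos2, for an exchange factor of RAS, was 3.17-fold higher within Lgr5+ and differed by -0.03 within Lgr5-. The lowest by mean tuft marker difference were Mapk3, which encodes ERK1 (-0.60 and -0.57), and Hras (-0.13 and -0.96). Gab1, singled out after its values were seen, differed by -1.54 within Lgr5+ and 1.58 within Lgr5-. With Lgr5, 4 of the 30 were at least 2-fold higher and 1 lower within tuft marker+ (median 0.35), and 2 and 1 within tuft marker- (-0.13). The Lgr5 shares over all genes were 8.95% and 11.4%, and 6.48% and 5.28%.

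Of 22 negative regulators, 5 were at least 2-fold higher and 2 lower with the tuft marker within Lgr5+ (median 0.17). Within Lgr5- 6 and 4 were (-0.12). All genes gave 10.4% and 8.12%, and 16.4% and 12.3%. Dusp6, the ERK phosphatase gene that ERK activity induces, stood at 3.0, 1.60, 3.24 and 1.69, so both tuft marker+ populations were high, by 2.63-fold and 2.91-fold. Ptpn1, for a phosphatase that acts on EGFR, stood at 1.36, -0.24, 1.28 and 0.03, and was 3.03-fold and 2.38-fold higher. On the same arrays 10 of 15 macrophage markers passed 2-fold upwards with the tuft marker among Lgr5+ cells. Among Lgr5- cells 12 of 15 did, and 0 passed downwards on either side. The part of macrophages in the Dusp6 and Ptpn1 differences was not tested. Dusp4, another ERK phosphatase gene, went the other way from Dusp6. It was not well above background in either tuft marker+ population and stood at -1.57 in both tuft marker- populations, which made it lower with the marker by at least 3.57-fold within Lgr5+ and at least 3.74-fold within Lgr5-. Lrig3 was 1.62-fold and at least 5.33-fold lower. Lrig1 encodes a transmembrane inhibitor of EGFR that also marks stem cells, and it was singled out after its values were seen. It stood at 1.04, 1.42, -0.95 and 0.59, and like Errfi1 it was lowest in Lgr5- tuft marker+ cells. So were 34.0% of all genes above background on every array. With Lgr5, 5 of 21 measured regulators were at least 2-fold higher and 1 lower within tuft marker+ (median 0.20). Without the tuft marker 1 and 1 of 22 were (0.02). All genes gave 8.95% and 11.4%, and 6.48% and 5.28%.

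Of 20 genes known as targets of the ERK pathway, 2 were 2-fold or more higher and 1 lower with the tuft marker within Lgr5+ (median 0.21). Within Lgr5- 4 and 2 were (0.04). Beside them stand 10.4% and 8.12%, and 16.4% and 12.3% of all genes. Dusp1, an early response phosphatase gene, stood at 4.18, 2.79, 4.84 and 2.73, and was 2.62-fold and 4.32-fold higher. Elk3, for an ETS factor, was higher by at least 2.85-fold within Lgr5+ and at least 5.29-fold within Lgr5-. Ccnd1, which encodes cyclin D1 and is also a target of beta-catenin, stood at 1.15, 0.99, 0.61 and 2.40, and was 3.46-fold lower with the tuft marker within Lgr5-. Etv4 was 1.97-fold lower within Lgr5+ and differed by -0.09 within Lgr5-. With Lgr5, 0 were at least 2-fold higher and 3 lower within tuft marker+ (median 0.02), and 0 and 2 of 19 within tuft marker- (-0.01). Here the shares of all genes were 8.95% and 11.4%, and 6.48% and 5.28%. Macrophages and stromal cells express Elk3 and Dusp1 as well. The 15 macrophage markers had median levels of 2.35, -1.69, 3.29 and -1.14, with 15, 11, 15 and 14 above background. Their summed signals were 729, 547, 789 and 620 times the 75th percentile, and such a sum follows the strongest markers. The part of macrophages and stromal cells in these differences was not tested.

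**Figure D5:**
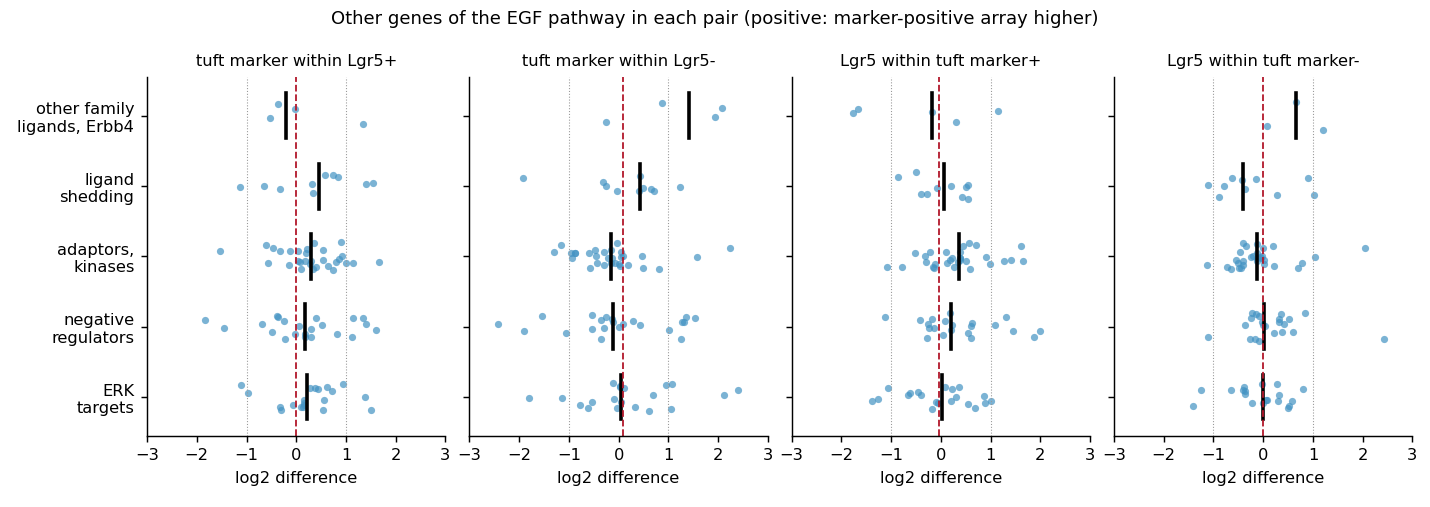
Difference of each measured gene of 5 lists of EGF pathway genes (points, log2, x axis) in each of the 4 pairs, with the list's median as a black bar, the median of all genes as a red dashed line and dotted lines at 2-fold. Except for the other family ligands, whose median rests on 3 to 5 genes, every median lies between -0.40 and 0.45, with single genes past 2-fold on both sides.

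The genes most like the 2 with the widest span were found by the distance between centred levels over 4 arrays, among 14055 genes above background on all of them. Nearest to Areg were Timm50 (root mean square distance 0.052), Tssk3 (0.080) and Rnf32 (0.104), and 12 genes were closer to it than its own scanner error of 0.14. Nearest to Egfr were Jpx (0.053), S1pr1 (0.061) and Ddah2 (0.062), with 26 genes closer than its error of 0.15. With 4 arrays such likeness is common and describes these arrays only.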

How the data were processed

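RNA of 4 sorted populations was measured, 1 array each, from 13 ng of total RNA, per the labels' protocols. Per the file headers, the deposited intensity had its background subtracted and spatial trend removed by Agilent Feature Extraction 12.0.3.1, while the submitters' processing notes name 11.5.1.1, and which gave the values is not settled. The authors also deposited a value table of intensity. From its values it is linear, not centred by gene, and equal to the processed intensity times 1 constant per array (10.9, 7.82, 11.9 and 9.08), with column medians of 279, 286, 365 and 253; the purpose of these constants is not stated.

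The deposited intensity was converted to log2 here, and the array's 75th percentile over 62976 spots less controls and outliers was subtracted. Probes were named by accession through RefSeq (GRCm38.p6), which named 32994 of 56604. A gene is its probe with the highest mean level, and is above background where any probe is. Lower values were raised to the array's floor, its lowest level well above background (-3.41, -3.86, -3.66 and -3.69), and differences against such values are limits written "at least". Without replicates there is no test, and 2-fold differences were counted. The calculation was tested on simulated data.

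The 10 genes and all lists were chosen with earlier results of these data known. Named from each list were the 2 measured genes with the highest and the 2 with the lowest mean tuft marker difference, and all of the other ligands and Erbb4. In the signalling list, 2 genes are counted but not reported singly here. Likeness was the root mean square distance between centred levels. The scanner files hold no gMeanSignal column, so normexp (offset 50, limma 3.58.1) used median signals and background medians. Python 3.11.15, pandas 2.3.3 and R 4.3.3 were used.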

Additional observations from a re-analysis of the deposited data

Results flagged for a closer look

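Opposite differences on the 2 sides of the other marker, each beyond its scanner error, were looked for in the 14 probes of the 10 genes and in 86 other pathway genes with a probe. None of these contrasts could be tested, since each population has 1 array. Both marker axes give the same distance between a gene's opposite differences, because both come from the same 4 levels. The Egfr probe A_52_P674338 had a tuft marker difference of 0.60 within Lgr5+ and -0.36 within Lgr5-, which are 0.96 apart, where the strongest Egfr probe gave 0.94 and 0.93.

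Of the 78 of these pathway genes above background on all 4 arrays, 32 had such opposite differences on 1 axis or both, beside 49.0% of all 14055 such genes. The distances below are the difference within the positive class minus that within the negative class. The largest in size was that of Gab1, at -3.12, with tuft marker differences of -1.54 and 1.58 and Lgr5 differences of -1.08 and 2.05. Epgn followed at -2.44 (tuft marker -0.36 and 2.08, Lgr5 -1.77 and 0.67), and Ccnd1 at 1.95 (Lgr5 0.54 and -1.41).

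Among shedding and trafficking genes the distance was 0.63 for Adam10, -1.31 for Adam12, 0.87 for Adam15, 1.06 for Rhbdf2, 1.66 for Frmd8 and -0.77 for Nkd2. Among signalling genes it was 0.54 for Shc1, 0.78 for Sos1, -1.34 for Gab2, 0.88 for Ptpn11, 0.82 for Hras, 1.73 for Araf, 1.21 for Braf, 0.81 for Map2k1, 1.22 for Map2k2, -1.30 for Pik3cb, 1.44 for Akt2, 0.68 for Stat3, 1.59 for Eps8 and 0.95 for Eps15. Among negative regulators it was -0.77 for Cbl and 0.74 for Ptpn2. Among ERK targets it was 1.07 for Fosl1, 0.58 for Fosl2, -1.20 for Etv5, 1.03 for Phlda1, 1.26 for Epha2, 0.72 for Epha4 and -0.66 for Spred3. These differences were not tested.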

How the results depend on the processing

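No paired analysis was possible because each group has 1 array. Alternatives were run for the 10 genes, the lists and the counts. No member difference that was at least 2-fold as reported changed sign under one. Of 300 values of member differences 68 moved by more than the scanner error, as did 8 of 63 differences of differences and 27 of 220 list medians. Of the counts, 18 of 88 for members and 34 of 88 for all genes moved by more than 1.5 times. All 31 levels moved when arrays were scaled to their median, since 0 then means another reference. The causes of the other shifts were not tested. Signal over background limits Tgfa, Ereg, Egf, the weaker Btc probe and the Egfr probe A_52_P106259, which stood near or under the floor. The Egfr probe A_52_P674338 was above background on every array, at -1.31, -1.91, -2.05 and -1.68.

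Among the 10 genes, median scaling gave 1 higher with the tuft marker within Lgr5+ (Egfr) and 2 higher with Lgr5 within tuft marker+ (Egfr and Errfi1). The 75th percentile over probes detected on all arrays gave 1 higher with the tuft marker within Lgr5- (Egfr), and by the authors' values 1 was higher in each tuft marker pair (Egfr). Normexp with quantile scaling left 1 lower in each tuft marker pair (Erbb3, and Areg) and 0 lower with Lgr5 within tuft marker-, and normexp with percentile scaling 1 (Erbb3) within Lgr5+ and 0. The mean of all probes left 1 lower within Lgr5+ (Erbb3). The scanner's less strict flag added Ereg, for 1 lower with Lgr5 among tuft marker+ cells and 2 among tuft marker- cells. That flag, and leaving out the floor, also put Tgfa at -1.03 with the tuft marker within Lgr5+, for 3 lower in place of 2. At 1.5-fold, 1 was higher in each tuft marker pair (Egfr), 5 were lower within Lgr5-, and 3 and 1 were higher with Lgr5 on the tuft marker+ and tuft marker- side. Where Erbb2 was represented by its other probe, and Egfr by its others, which was chosen after seeing the data, the values are those given for the probes above.

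Over all genes, the median difference was 0.00, 0.08, -0.04 and 0.00 in the 4 pairs, and with median scaling 0.10, -0.15, 0.18 and -0.11, which shifts every difference of a pair alike. In the authors' table it was 0.06, 0.37, -0.21 and 0.07. Relative to these medians, the members' order is that of the main values. Counts of 2-fold genes changed most after normexp, which compresses weak signals by adding an offset. With quantile scaling they were 619 higher and 189 lower (tuft marker within Lgr5+), 1171 and 587 (within Lgr5-), 392 and 561 (Lgr5 within tuft marker+) and 126 and 124 (Lgr5 without it), and with percentile scaling 665 and 248, 949 and 785, 381 and 387, and 132 and 165. The main counts were 1825 and 1421, 2941 and 2198, 1578 and 2013, and 1135 and 926. Median scaling gave 3435 lower with the tuft marker within Lgr5-, and 2599 higher and 1288 lower with Lgr5 within tuft marker+. The authors' table gave 4439 higher and 1154 lower with the tuft marker within Lgr5-. With the less strict flag 2811 were lower with the tuft marker within Lgr5+, 3741 lower with Lgr5 within tuft marker+, and 2326 higher and 1709 lower within tuft marker-. Without a floor 2213 were lower with the tuft marker within Lgr5+. At 1.5-fold the counts were 3572 and 3554, 5203 and 4491, 3835 and 4207, and 3166 and 2739.

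Of the list medians, those of the other family ligands (3 to 5 genes) moved furthest. With the tuft marker within Lgr5- (1.41) they were 0.45 and 0.52 after normexp with quantile and percentile scaling, 0.49 with the mean of all probes, 2.49 without a floor and 0.45 without the detection filter. With Lgr5 within tuft marker- (0.67) they were 0.20 and 0.14 after the same normexp settings and -0.05 without the detection filter, which put that within Lgr5+ (-0.20) at 0.21. Median scaling put the shedding genes at 0.19, the signalling genes at -0.38, the negative regulators at -0.35 and the ERK targets at -0.19 with the tuft marker within Lgr5-, and at 0.28, 0.58, 0.42 and 0.24 with Lgr5 within tuft marker+. The authors' table put the same 4 lists at 0.72, 0.14, 0.17 and 0.33 with the tuft marker within Lgr5-. The ERK targets there were at 0.39 after quantile scaling with or without normexp. The mean of all probes put the negative regulators at -0.11 with the tuft marker within Lgr5+, the shedding genes at 0.21 within Lgr5-, and the ERK targets at 0.26 with Lgr5 within tuft marker+. The mean of the list in place of its median put the shedding genes at 0.14 with the tuft marker within Lgr5-.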
